A study of Sus scrofa with 40 samples.

Results

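The transcripts followed here are those of the hypoxia-inducible factor (HIF) pathway in the ischemic pig kidney: erythropoietin (EPO), VEGFA, HIF1A, EPAS1, ARNT, EGLN1, EGLN3, CA9, ADM and BNIP3. A spot of the array was taken for a gene where its gene name or the symbol in brackets in its description equalled 1 of these 10 symbols. This found 19 spots, which averaged to 11 identifiers of 9 genes, out of 43803 non-control spots and 35955 identifiers on the array. BNIP3 was named by no spot and is given no value. VEGFA and EPAS1 each had 2 identifiers, which are kept apart below.

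HIF is a transcription factor made of an oxygen-labile alpha subunit (HIF1A, or EPAS1) and the stable partner ARNT. In oxygen, the prolyl hydroxylases EGLN1 and EGLN3 mark the alpha subunit for destruction, whereas in hypoxia it accumulates as protein and switches on genes such as VEGFA, CA9, ADM and, in the kidney, EPO. Renal EPO is made by interstitial fibroblast-like cells that lie mainly near the border of cortex and medulla, and EGLN3 and EGLN1 are themselves HIF targets.

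Kidneys of 3-month-old Large White pigs were profiled, with 1 single-color array for each of 40 tissue samples, which form 8 groups of 5. In the control group (Ctl), kidneys were taken out and sampled immediately, with no ischemia. Kidneys of the warm ischemia group (WI) were clamped and held for 60 min at 37 °C. The third set had the same warm ischemia, was flushed with University of Wisconsin solution and kept at 4 °C, and was sampled after 6 h (WI+CS6h) and again after 24 h (WI+CS24h) of cold storage. Each condition was sampled in the cortex (C) and in the corticomedullary junction (CMJ). The kidneys number 15 in all, none was reperfused, and by the labels the 6 h and 24 h samples come from the same 5 kidneys.

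Values are log2 signals after background subtraction and quantile normalization of the 40 arrays, and a difference of 1 is a 2-fold change. A difference was called where limma's adjusted p (Benjamini-Hochberg over all identifiers tested) was under 0.05 and the absolute log2 difference was at least 0.5. The fits pool the 4 groups of a tissue, or all 8 groups where tissues are compared, and the number of arrays limits the precision.

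Between 57% and 69.9% of the spots on an array stood well above background, and the 2 lowest shares were those of WI+CS6h-C replicates 5 and 3. Of the 11 identifiers, 10 were well above background on all 40 arrays and EPO was on 39, and none was saturated. The tissue labels were checked with 4 identifiers of medullary and distal nephron genes (SLC12A1, 2 of AQP2, and SCNN1G), whose median difference of CMJ from cortex was 0.62 in Ctl, 0.36 in WI, 0.06 in WI+CS6h and 0.07 in WI+CS24h. SLC12A1, the sodium-potassium-chloride cotransporter of the thick ascending limb, was the one called, at 1.24 in Ctl (adjusted p = 0.0119) and 1.16 in WI (adjusted p = 0.0125), and it was not called in WI+CS6h (0.63) and WI+CS24h (0.64). The epithelial sodium channel gene SCNN1G lay lower in CMJ in all 4 conditions (-0.48 to -0.14, not called), and 0 of 6 proximal tubule identifiers were called between the tissues. A pair of array sets stood apart. WI-CMJ replicates 1, 3 and 5 had mean log2 signals of 5.42, 5.91 and 6.23 over the 8 identifiers of 5 adipocyte genes (ADIPOQ, FABP4, PLIN1, LEP and CIDEC), against 3.85 and 3.93 on WI-CMJ replicates 2 and 4. All arrays of the other 7 groups lay between 3.51 and 4.27. The 3 ADIPOQ identifiers carried most of this, each higher on these 3 arrays than on any other (EF601160 at 6.23, 7.05 and 7.53 against at most 1.12), and FABP4 was above all others on 2 of them. PLIN1, LEP and both CIDEC identifiers lay within the range of the other arrays. ADIPOQ, the adiponectin gene that defines fat cells, was well above background on 3, 4 and 34 of 40 arrays for its 3 identifiers (EF601160, JX092267 and NM_214370). The main results that use WI-CMJ are therefore given with and without replicates 1, 3 and 5. Replicate 5 of each of the 4 cold-stored groups had the lowest mean of its group over the proximal tubule identifiers (9.88 to 10.30) and over the fibroblast identifiers (6.99 to 7.22). When these 4 arrays were left out, an alternative chosen after seeing the data, the members called against Ctl and WI stayed at 0 and 3, and 31 pathway list calls were made in place of 33.

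The probe that carries the EPO result lies at base 1203 of the EPO transcript NM_214134. Its first 30 of 60 bases, as the array file gives them, are shown so that the single reporter behind this result can be identified.
EPO: gctctcactaggtccaagttttgtgtattt

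A second spot, described on the array as similar to sheep erythropoietin (TC533982) and outside the naming rule, was well above background on 1 of the 5 WI+CS6h-CMJ arrays and on none of the others, so it gives no second measure of EPO.

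EPO was the member with the widest range, and it was highest in CMJ before cold storage. In Ctl-CMJ the 5 arrays gave 6.73, 6.23, 5.66, 6.94 and 7.23, a mean log2 signal of 6.56 ± 0.62 (SD, n = 5). In WI-CMJ they gave 7.57, 5.45, 7.23, 7.69 and 7.59, a mean of 7.11 ± 0.94. WI-CMJ replicates 1, 4 and 5 were above the highest control, replicate 3 was level with it, and replicate 2 lay below all controls.

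After cold storage the EPO signal in CMJ was lower. The WI+CS6h-CMJ arrays read 5.29, 5.93, 4.51, 5.43 and 5.56 (5.34 ± 0.52), and the WI+CS24h-CMJ arrays 5.66, 6.22, 5.23, 4.38 and 5.45 (5.39 ± 0.67). Every cold-stored array lay below the other 4 WI-CMJ arrays, and the low WI-CMJ replicate 2 fell inside the cold-stored range. Against WI-CMJ, EPO fell by 1.76 on the log2 scale at 6 h (SE 0.42, 3.39-fold, adjusted p = 0.0260) and by 1.72 at 24 h (3.29-fold, adjusted p = 0.0286). These calls were not firm. They were lost with slide as a block (-1.73 and -1.53, adjusted p = 0.196 and 0.0680), when only the 2 groups compared were fitted (adjusted p = 0.0675 and 0.114, the differences being the same), and in 6 of 20 fits each that left out a single array of CMJ (-1.75 to -1.47). They were kept without replicate 5 of the cold-stored groups (adjusted p = 0.0395 and 0.0485). With normexp background correction they were kept too, but the differences were smaller, at -0.73 and -0.71. Normexp was run with an offset of 50, which draws log2 differences of dim probes toward 0, here and below. In bulk tissue, fewer cells of a type and less RNA per cell cannot be told apart. The same 5 kidneys supply both cold-stored groups and the same WI arrays serve both comparisons, so they are not independent.

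The EPO difference from WI rests partly on the arrays with high ADIPOQ. Without WI-CMJ replicates 1, 3 and 5 it was -1.23 at 6 h (SE 0.58, adjusted p = 0.470) and -1.18 at 24 h (adjusted p = 0.473), with 2 WI arrays left. Of those 2, replicate 4 had the highest EPO signal of all 40 arrays (7.69) and replicate 2 the lowest of its group (5.45). Interstitial fibroblast markers (4 identifiers of NT5E, DCN and LUM) had a mean of 8.08 in WI-CMJ, from 7.67 to 8.53, and group means between 7.61 and 7.72 in the other CMJ groups, with 0 of 4 called in any comparison. The 4 medullary and distal nephron identifiers had a mean of 10.26 in WI-CMJ, 10.15 at 6 h and 10.29 at 24 h, where SCNN1G was called upward, and the median of their differences from WI-CMJ was -0.33 and -0.20, so the sign at 24 h turns with the summary used. Leukocyte markers (3 identifiers) had a mean of 6.37 in WI-CMJ and of 5.88 and 5.89 in cold-stored CMJ, none of them called. The red cell gene HBB was well above background on 5 of 5 arrays of WI-CMJ and on 3 of 5 in each cold-stored CMJ group, so its level there has a floor and no difference is given. The part of these marker lists in the EPO result was not tested.

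Split by scan day, the EPO difference between WI+CS6h-CMJ and WI-CMJ was -1.16 on the first day (exact two-sided permutation p = 0.4) and -2.33 on the second (exact p = 0.1). At 24 h it was -1.27 (exact p = 0.2) and -2.39 (exact p = 0.333). The smallest p these splits allow is 0.1, or 0.333 with 2 arrays against 2, and over both days together the exact permutation p was 0.0238 at each time. On the 6 slide pairs where a slide held a cold-stored and a WI array of CMJ, EPO was lower on the cold-stored array each time, with differences from -2.85 to -0.23. Slide 10 gave 2 of these pairs with the same WI array, so the pairs are not all separate.

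Against Ctl-CMJ, EPO was not called. Its log2 difference was 0.55 after WI (adjusted p = 0.675), or 0.01 without WI-CMJ replicates 1, 3 and 5, and it was -1.21 after 6 h of storage (adjusted p = 0.131) and -1.17 after 24 h (adjusted p = 0.135). The arrays of Ctl-CMJ and of both cold-stored groups overlapped. On slides that held both, EPO was lower than in Ctl-CMJ on 4 of 4 at 6 h (-2.21 to -0.95). At 24 h it was lower on 2 of 2 (-2.56 to -0.21).

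In cortex the mean EPO signal was lower than in CMJ in each condition. The Ctl-C arrays read 3.95, 4.29, 3.99, 4.93 and 6.12 (4.66 ± 0.91), and the WI-C arrays 5.76, 3.84, 4.81, 5.91 and 5.56 (5.18 ± 0.86). WI+CS6h-C had 5.30, 5.75, 3.42, 3.07 and 4.25 (4.36 ± 1.16), and WI+CS24h-C had 4.67, 5.48, 2.76, 4.77 and 4.44 (4.42 ± 1.01). All 4 cortex groups overlapped, and the differences from Ctl-C were 0.52, -0.30 and -0.23, none of them called. Of the WI+CS6h-C arrays, 4 of 5 were well above background for EPO.

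**Figure D1:**
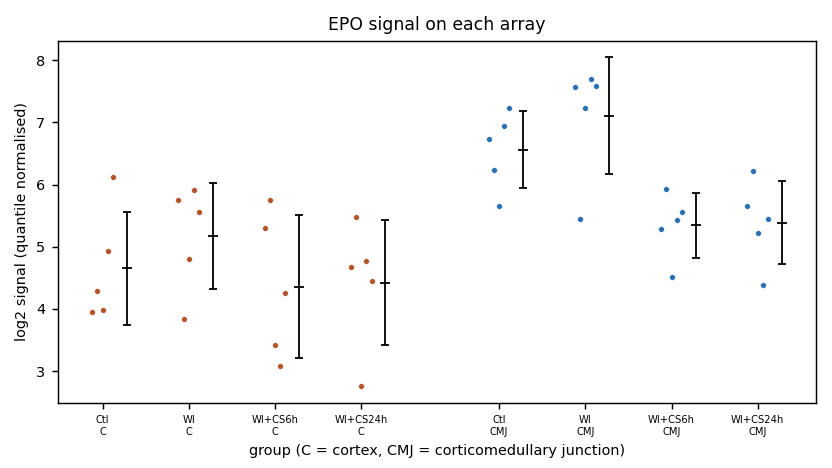
EPO log2 signal on each of the 40 arrays (points, y axis) in the 8 groups (x axis), with the group mean and SD as the bar and whiskers. The WI+CS6h-CMJ and WI+CS24h-CMJ arrays lie between 4.38 and 6.22, below 4 of the 5 WI-CMJ arrays, and the cortex groups overlap each other.

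Ordered by group mean, EPO went from WI-CMJ (7.11) and Ctl-CMJ (6.56) down through WI+CS24h-CMJ (5.39), WI+CS6h-CMJ (5.34), WI-C (5.18), Ctl-C (4.66) and WI+CS24h-C (4.42) to WI+CS6h-C (4.36). Of the 7 steps in this order, only that from Ctl-CMJ to WI+CS24h-CMJ, 1.17, was larger than the SD of both neighbours. Between the tissues EPO was higher in CMJ by 1.90 in Ctl (adjusted p = 0.141), 1.93 in WI (adjusted p = 0.0844), 0.99 in WI+CS6h (adjusted p = 0.540) and 0.96 in WI+CS24h (adjusted p = 0.987), and was called in none of the 4. In WI it was 1.40 without WI-CMJ replicates 1, 3 and 5 (adjusted p = 1.00), and it was called with the deposited matrix (1.42, adjusted p = 0.0218), with normexp (0.75, adjusted p = 0.00676) and without WI-CMJ replicate 2 (2.35, adjusted p = 0.0185). In Ctl it was 0.57 with normexp, and it was called without Ctl-C replicate 5 (2.27, adjusted p = 0.0387). Averaged over the 4 conditions, a contrast added after the single ones had been seen, EPO was 2.72-fold higher in CMJ (log2 difference 1.45, SE 0.26, adjusted p = 0.000608), where 1.39% of all identifiers were called. Without WI-CMJ replicates 1, 3 and 5 it was 1.31 (adjusted p = 0.0102), and it was called in all 40 fits that left out a single array (1.34 to 1.55). Over 8 other scalings and blocks its adjusted p was 0.000294 to 0.00710, but the difference was 0.91 with the deposited matrix and 0.42, under the fold limit, with normexp. The fits of this mean, here and for CA9 and ADM below, had no term for the kidney. The 40 arrays come from 15 kidneys, so the SE and adjusted p do not allow for arrays of a shared kidney. The replicate block ties arrays by number, also those of different kidneys. Whether the tissue difference itself shrank with cold storage was tested as an interaction: it was smaller by 0.94 after storage than in Ctl and WI (SE 0.53, adjusted p = 0.895), which is not called, and 0% of all identifiers were. The value was -0.68 without WI-CMJ replicates 1, 3 and 5 (adjusted p = 0.985). Markers differed between the tissues too. The interstitial fibroblast mean in CMJ minus that in cortex was 0.27 in Ctl, 0.67 in WI, -0.01 in WI+CS6h and 0.20 in WI+CS24h, and that of the 4 medullary and distal nephron identifiers was 0.53, 0.35, 0.10 and 0.16. Their part in the EPO values was not tested.

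**Figure D2:**
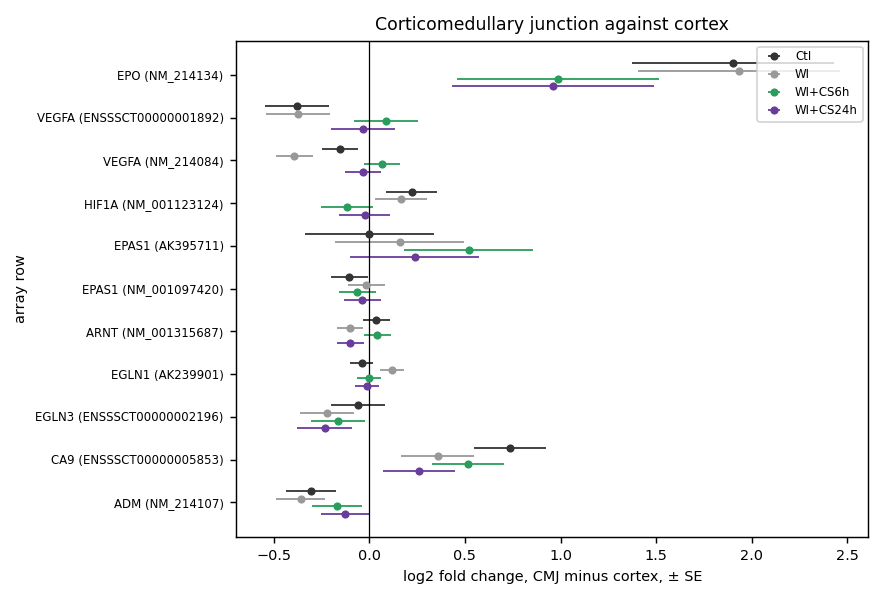
Log2 difference of CMJ minus cortex for each of the 11 identifiers (points with SE, x axis) in the 4 conditions. EPO is furthest from 0 in Ctl (1.90) and WI (1.93), CA9 is above 0 in all 4 conditions, and ADM is below 0 in all 4.

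VEGFA, the main angiogenic growth factor, was measured by 2 probes on the transcript NM_214084, at bases 366 and 462, and by 1 probe at base 1648 of a second transcript (ENSSSCT00000001892). The 2 probes of NM_214084 gave unequal changes, so both are shown whole.
VEGFA at base 366: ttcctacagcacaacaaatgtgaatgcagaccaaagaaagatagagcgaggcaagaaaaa
VEGFA at base 462: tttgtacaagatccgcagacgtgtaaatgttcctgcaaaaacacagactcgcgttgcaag

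VEGFA (NM_214084) was lowest in WI-CMJ and rose with cold storage there. The WI-CMJ arrays read 7.29, 7.45, 7.47, 7.31 and 7.26 (7.35 ± 0.10), those of WI+CS6h-CMJ 7.77, 7.89, 7.88, 7.93 and 7.82 (7.86 ± 0.06), and those of WI+CS24h-CMJ 7.88, 7.60, 7.80, 8.03 and 7.90 (7.84 ± 0.16). Neither cold-stored group overlapped with WI-CMJ. The rise over WI was 0.50 at 6 h (SE 0.09, 1.42-fold, adjusted p = 0.00269), which was called, and 0.49 at 24 h (adjusted p = 0.00323), which stayed under the limit of 0.5.

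Control CMJ lay between these groups, at 7.49, 7.63, 7.61, 7.91 and 7.57 (7.64 ± 0.16). All WI-CMJ arrays were below all of these, and both cold-stored groups overlapped with them. Against Ctl-CMJ, VEGFA NM_214084 differed by -0.29 after WI (adjusted p = 0.128), 0.22 at 6 h (adjusted p = 0.202) and 0.20 at 24 h (adjusted p = 0.219). In WI it was lower in CMJ than in cortex by 0.39 on the log2 scale (adjusted p = 0.0386), under the fold limit, and in cortex it differed between conditions by at most 0.13. Within each scan day the rise at 6 h was 0.50 (exact p = 0.1, the smallest possible). Without WI-CMJ replicates 1, 3 and 5 the rise was 0.48 at 6 h (adjusted p = 0.0908) and 0.46 at 24 h (adjusted p = 0.0905), and WI-CMJ differed by -0.26 from Ctl-CMJ (adjusted p = 0.606) and by -0.37 from WI-C (adjusted p = 0.628). The 6 h value lies at the limit of 0.5, and it fell under it in 6 of 20 fits that left out a single array. With slide as a block it was 0.495 (adjusted p = 0.0981) and was not called.

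The single probes differed in size. At base 366 VEGFA rose over WI-CMJ by 0.64 at 6 h and 0.63 at 24 h (adjusted p = 0.000272 and 0.000296), both called, and was 0.47 lower on the log2 scale in WI-CMJ than in Ctl-CMJ (adjusted p = 0.0141). At base 462 the corresponding differences were 0.37, 0.34 and -0.11, none of them called (adjusted p = 0.0760, 0.0977 and 0.778). The second transcript differed from WI-CMJ by 0.23 and 0.18 (adjusted p = 0.489 and 0.640), and from Ctl-CMJ by 0.41 at 6 h (adjusted p = 0.163). That difference from Ctl-CMJ was called with slide as a block (0.52, adjusted p = 0.0460). The rise of VEGFA over WI was thus called for 1 of 3 probes. Without WI-CMJ replicates 1, 3 and 5 the rises at base 366 were 0.62 and 0.61 (adjusted p = 0.0147 and 0.0137), both still called, and WI-CMJ differed from Ctl-CMJ by -0.45 (adjusted p = 0.119). At base 462 the rises were then 0.34 and 0.32, and the second transcript differed by 0.03 and -0.02.

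With EPO and VEGFA, the comparison of WI+CS6h-CMJ with WI-CMJ called 2 of 11 identifiers, where 2.78% of all identifiers were called, and that of WI+CS24h-CMJ with WI-CMJ called 1 of 11 (EPO), where 2.85% were. The same comparisons in cortex called 0 of 11 (1.93% and 1.2% of all identifiers), with 1 and 2 members under an unadjusted p of 0.05 by limma.

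**Figure D3:**
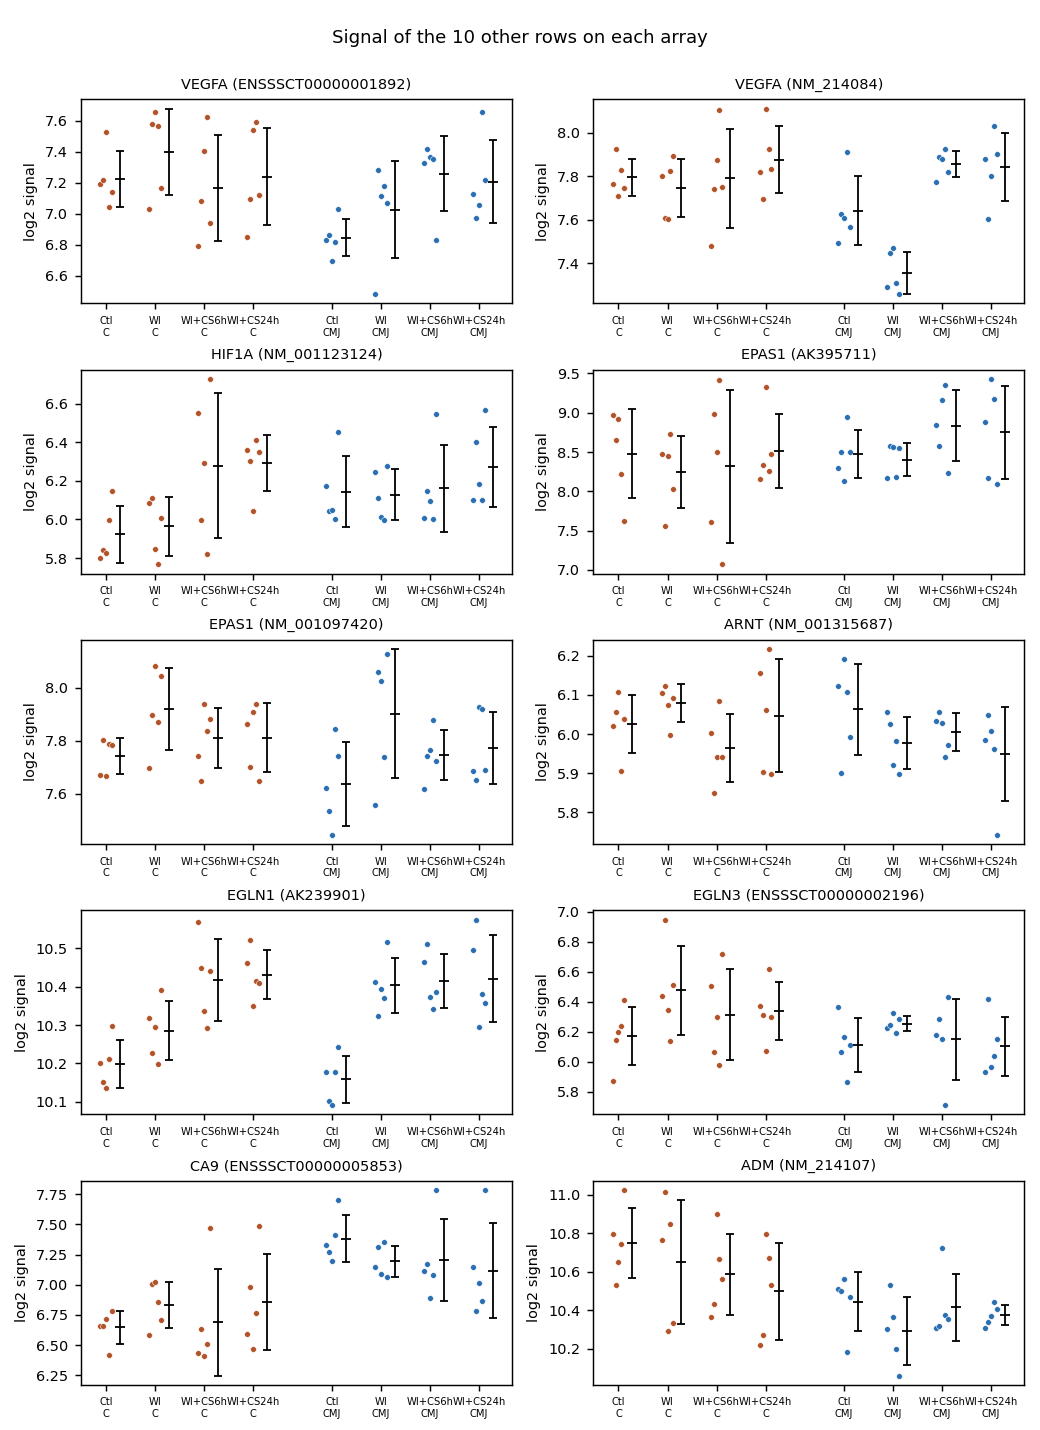
Log2 signal of the other 10 identifiers on each array (points) by group, 1 panel each, with the group mean and SD. The panels have their own y axes and levels are not compared between probes. VEGFA NM_214084 in WI-CMJ lies below both cold-stored CMJ groups, and EGLN1 in CMJ is lower in Ctl than in the other 3 groups.

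Of the prolyl hydroxylases, EGLN1 was slightly but evenly higher in every treated CMJ group than in control. The Ctl-CMJ arrays read 10.18, 10.10, 10.09, 10.18 and 10.24, and those of WI-CMJ 10.41, 10.32, 10.39, 10.37 and 10.52. WI+CS6h-CMJ had 10.46, 10.51, 10.37, 10.34 and 10.39, and WI+CS24h-CMJ 10.50, 10.57, 10.29, 10.38 and 10.36. None of these 3 groups overlapped with Ctl-CMJ. The share of all identifiers without overlap was not counted. Of the 35938 tested, 4410, 5752 and 6362 had an unadjusted p under 0.05 by limma in these comparisons. The 3 comparisons share the control arrays, and the cold-stored groups share their kidneys, so they are not independent. The log2 differences were 0.25 after WI (adjusted p = 0.0786), 0.26 at 6 h (adjusted p = 0.0268) and 0.26 at 24 h (adjusted p = 0.0212), each with an SE of 0.06. All 3 are under the fold limit and are not called. Without WI-CMJ replicates 1, 3 and 5 the difference after WI was 0.19 (adjusted p = 0.618). In cortex EGLN1 differed from Ctl by 0.09 after WI, 0.22 at 6 h (adjusted p = 0.0722) and 0.23 at 24 h (adjusted p = 0.0744). EGLN3, the hydroxylase usually known as the most hypoxia-inducible of the family, differed from Ctl by -0.01 to 0.30 over the 6 comparisons, the highest in WI-C (SE 0.16, adjusted p = 1.00). An identifier outside the naming rule, found after the results were seen and described on the array only as similar to human EGLN3 (TC528733), went the other way. In cortex its arrays read 6.81 to 7.43 in control and 6.25 to 6.83 over both storage times, and in CMJ 7.02 to 7.32 and 6.36 to 6.87, without overlap in CMJ. Its differences from Ctl were -0.78 and -0.66 in cold-stored cortex (adjusted p = 0.00142 and 0.00591) and -0.54 and -0.64 in cold-stored CMJ (adjusted p = 0.00451 and 0.00103), all called. Whether it reports EGLN3 was not tested, and it is not counted among the members.

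No HIF subunit was called at the RNA level. HIF1A in Ctl-C read 5.80, 5.84, 5.83, 6.00 and 6.15, in WI+CS6h-C 6.55, 6.00, 6.29, 5.82 and 6.73, and in WI+CS24h-C 6.36, 6.30, 6.04, 6.41 and 6.35. The cold-stored groups had higher means but overlapped with control, and the differences of 0.35 and 0.37 did not pass the test (adjusted p = 0.169 and 0.202). After WI alone the difference in cortex was 0.04, and in CMJ all 3 lay between -0.02 and 0.13. EPAS1, the alpha subunit known for driving EPO, differed from Ctl by -0.23 to 0.36 for one transcript (AK395711) and by 0.07 to 0.26 for the other (NM_001097420). AK395711 varied widely, with an SD of 0.97 in WI+CS6h-C. Without the cold-stored replicate 5 arrays it differed in CMJ by 0.51 and 0.44 from Ctl, and by 0.58 and 0.51 from WI, none of them called. ARNT, averaged over 4 probes, stayed between -0.11 and 0.05 of its control. Its probes did not move together. From Ctl-C to WI+CS6h-C the mean went from 4.92 to 4.61 at base 521 and from 6.20 to 6.38 at base 2109. It went from 7.80 to 7.71 at base 2445 and from 5.17 to 5.16 at base 3273.

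CA9 and ADM, a surface carbonic anhydrase and a vasodilator peptide, did not pass the test between conditions. CA9 differed from Ctl by -0.26 to 0.21 and ADM by -0.25 to -0.03. Without the cold-stored replicate 5 arrays, CA9 in CMJ differed from Ctl by -0.32 at 6 h (adjusted p = 0.108) and by -0.43 at 24 h (adjusted p = 0.0257), under the fold limit. Of the 3 CA9 probes, those at bases 794 and 797 share a run of 36 bases, in capitals below, and are not separate reporters.
CA9 at base 794: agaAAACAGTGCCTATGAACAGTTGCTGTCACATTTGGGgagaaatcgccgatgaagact
CA9 at base 797: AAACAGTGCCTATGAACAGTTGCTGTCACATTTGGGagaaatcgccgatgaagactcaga

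CA9 differed mainly between the tissues. In Ctl-CMJ the arrays read 7.33, 7.27, 7.20, 7.41 and 7.70, and in Ctl-C 6.66, 6.66, 6.72, 6.42 and 6.78, with no overlap. The difference was 0.74 (SE 0.19, adjusted p = 0.0903), and by single probe it was 0.66, 0.77 and 0.78. It was called with the replicate block (adjusted p = 0.0167), though same-numbered arrays of Ctl-C and Ctl-CMJ correlated at only -0.13 to 0.08. Without the cold-stored replicate 5 arrays it was called too (adjusted p = 0.000537). Those arrays are not in this comparison, so the difference was unchanged and the SE fell to 0.11. It was 0.36 in WI (0.50 without WI-CMJ replicates 1, 3 and 5), again without overlap, and 0.52 and 0.26 in WI+CS6h and WI+CS24h, where the tissues overlapped. Replicate 5 was the highest array of each cold-stored group, at 7.47 and 7.48 in cortex and 7.78 in CMJ at both times. Same-numbered arrays of both tissues were correlated there. The own number was the closest for only 3 of 5 at 6 h and 2 of 5 at 24 h, and the labels do not state this pairing. Between same-numbered arrays CA9 was higher in CMJ in 5 of 5 pairs at 6 h (0.32 to 0.68) and in 4 of 5 at 24 h (-0.20 to 0.55). In fits of these pairs alone neither difference was called. ADM was higher in CMJ in 0 of 5 such pairs at 6 h (-0.29 to -0.06) and in 2 of 5 at 24 h (-0.43 to 0.09). In the fits of these pairs alone 2 members had an unadjusted p under 0.05 by limma at 6 h and 0 at 24 h. Averaged over the 4 conditions, CA9 was higher in CMJ by 0.47 (adjusted p = 0.00213) and ADM was lower by 0.24 on the log2 scale (adjusted p = 0.0290), both under the fold limit. Without WI-CMJ replicates 1, 3 and 5 the CA9 difference was 0.50 (adjusted p = 0.00630), just past the limit, and that of ADM -0.22 (adjusted p = 0.118). By condition, CMJ called 0 of 11 members against cortex, where 0.312% of all identifiers were called in Ctl, 0.671% in WI, 0.0807% in WI+CS6h and 0% in WI+CS24h, with 4, 4, 1 and 0 members under an unadjusted p of 0.05 by limma. The 3 interactions with tissue called 0 members and 0% of all identifiers, with no member under an unadjusted p of 0.05.

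Against control, no member was called in any of the 6 comparisons with limma. In cortex 0.0946% of all identifiers were called after WI, 4.02% after 6 h and 2.5% after 24 h of storage, and 0, 2 and 2 members had an unadjusted p under 0.05. In CMJ 0.687%, 3.19% and 3.65% of all identifiers were called, and 3, 4 and 4 members had an unadjusted p under 0.05. The median log2 difference of the 11 identifiers ranged from -0.02 to 0.13, and that of all identifiers from -0.01 to 0.05. Between 24 h and 6 h of storage 0 of 11 members were called in either tissue, with 0% of all identifiers called in cortex and 0.00278% in CMJ, and no member had an unadjusted p under 0.05. Over the 11 identifiers the differences between these times lay between -0.09 and 0.20.

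**Figure D4:**
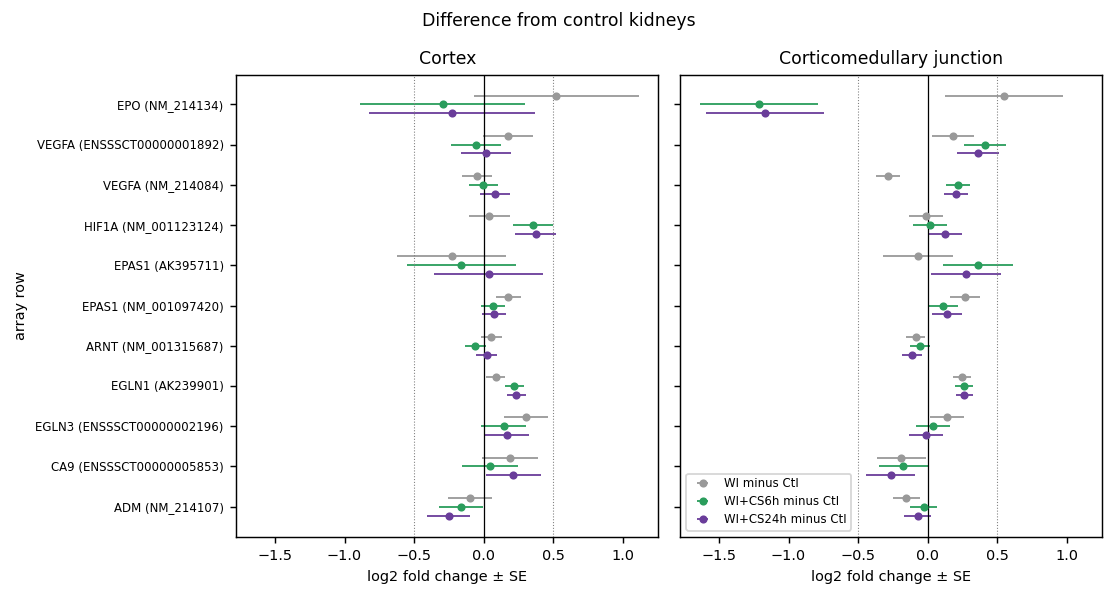
Log2 difference from Ctl of the same tissue for the 11 identifiers (points with SE, x axis), in cortex and CMJ and for WI, WI+CS6h and WI+CS24h. EPO in CMJ after cold storage (-1.21 and -1.17) is furthest from 0, and no difference was called.

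The rest of the pathway was followed with 4 lists of 69 other genes, of which 47 genes had 61 identifiers on the array. None of the 61 was called after WI alone in either tissue. Of all identifiers 0.0946% in cortex and 0.687% in CMJ were called there, and 0 of 61 cannot be set apart from these shares. After cold storage 8 and 7 were called in cortex (6 h and 24 h) and 8 and 10 in CMJ. This is more in proportion than the 2.5% to 4.02% of all identifiers given above for the same fits. Most of these list calls were falls (6, 6, 5 and 8). So were most calls over the whole array (860 of 1445, 526 of 900, 663 of 1148 and 827 of 1313). A filter on dim identifiers kept 59 of the 61, but only 23933 of the 35939 tested in cortex. With this filter 8, 8, 8 and 12 of 59 were called, against 7.15%, 4.42%, 5.41% and 6.15% of all identifiers kept. The lists were chosen with earlier results of these data known, so the shares are a description. With slide as a block, cortex had 4 calls at 6 h (3.66% of all identifiers) and 0 at 24 h (0.337%), whereas CMJ had 6 (2.69%) and 1 (0.796%), so the calls at 24 h, except that of CITED2 (ENSSSCT00000004577) in CMJ, were lost there, and 0 or 1 of 61 cannot be set apart from these shares. With normexp, cortex had 2 at either time (0.751% and 0.545% of all identifiers) and CMJ had 3 at 6 h (0.456%) and 7 at 24 h (0.534%). The median over the 61 lay between -0.08 and 0.11 in these comparisons.

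In the list of HIF regulators, 2 of 8 identifiers were called in each of the 4 cold-storage comparisons, and both are of CITED2, a HIF target that competes with HIF for its coactivators. CITED2 (ENSSSCT00000004577) had log2 signals of 8.73 to 8.99 in Ctl-CMJ and of 7.83 to 8.19 in WI+CS6h-CMJ, with no overlap. It fell by 0.89 in WI+CS6h-CMJ (SE 0.09, adjusted p = 1.46e-05) and by 0.84 in WI+CS24h-CMJ (adjusted p = 2.61e-05), and in cortex it fell by 0.58 and 0.60 (adjusted p = 0.0162 and 0.0168). The second CITED2 identifier (AK391669) fell by 0.53 to 0.69 in the same 4 comparisons. At 6 h in cortex the call of AK391669 (adjusted p = 0.0485) was made in 4 of the 13 ways of processing that were compared. After WI alone both lay between -0.24 and -0.09 of control and were not called.

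Among glycolytic enzymes, classical metabolic HIF targets, 0 of 17 identifiers were called by limma against control. In these comparisons 0.0946% to 4.02% of all identifiers were called, and 0 of 17 cannot be set apart from such shares. The median differences were 0.12 and 0.11 after WI in cortex and CMJ, 0.33 and 0.25 in cold-stored cortex, and 0.10 at both times in cold-stored CMJ. The transporters of this list (SLC2A1, SLC2A3 and SLC16A3) had no identifier by the same rule and have no value.

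Among vascular genes, EDN1, which encodes the vasoconstrictor endothelin, fell and the VEGF receptor gene KDR rose. EDN1 lay between 3.59 and 4.74 in Ctl-CMJ and between 1.31 and 3.51 in WI+CS6h-CMJ, without overlap. It fell by 1.53 and 1.34 in cold-stored CMJ (adjusted p = 0.0183 and 0.0364) and by 1.04 and 1.07 in cold-stored cortex (adjusted p = 0.0195 and 0.0208). The EDN1 probe was well above background on 1 and 2 of 5 arrays in cold-stored cortex and on 3 and 3 of 5 in cold-stored CMJ, so these falls have a floor. They were smaller in other ways of processing. With normexp, whose offset of 50 draws differences of dim probes toward 0, they were -0.11 and -0.12 in CMJ and -0.05 and -0.06 in cortex. With the deposited matrix they were -0.45, -0.39, -0.25 and -0.25, and none of these was called. Both KDR identifiers rose in cold-stored CMJ, by 0.53 to 0.65 (adjusted p = 0.00235 to 0.0138), and in cortex neither was called (0.18 to 0.43). KDR is itself an endothelial gene, and the mean of 6 other endothelial identifiers (of PECAM1, CDH5, VWF and TEK) was 7.86 in control CMJ, 7.98 after 6 h and 8.06 after 24 h of storage, with 0 of 6 called. Ctl-CMJ replicate 3 was the lowest of the 20 CMJ arrays for that mean (7.45) and for both KDR identifiers (6.02 and 8.16), and the part of endothelial content in the KDR values was not tested. With normexp ENSSSCT00000009683 differed by 0.21 and 0.26, and with the deposited matrix by 0.39 and 0.496, not called. Without the cold-stored replicate 5 arrays its 6 h difference was 0.497, just under the fold limit (adjusted p = 0.0235). With normexp ENSSSCT00000036588 differed by 0.44, not called, and 0.52. ANGPT1, a ligand of the endothelial TIE receptor, rose by 0.63 in WI+CS6h-C (adjusted p = 0.0250), was called in 8 of the 13 ways of processing, and differed by 0.20 with normexp.

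In the list of other targets, DDIT4, an inhibitor of mTOR signaling, fell in cold-stored tissue by 0.91 to 1.06 on the log2 scale. Its signal was 10.2 to 10.5 in Ctl-C and 8.58 to 9.69 in WI+CS6h-C. Replicate 5 was lowest for DDIT4 in each cold-stored group, and without it the 4 differences were -0.92 to -0.76, all called. STC2, a secreted stanniocalcin, fell by 0.94 to 1.18 for one identifier (ENSSSCT00000018493), and for the other (NM_001110173) it was not called (-0.57 to 0.14). With normexp the 4 differences of the first were -0.25 to -0.20 and were not called. HMOX1, the heme-degrading oxygenase, rose by 0.83 and 0.78 in cold-stored cortex (adjusted p = 0.0110 and 0.0206), and its signal was 9.97 to 10.1 in Ctl-C and 10.3 to 11.3 in WI+CS6h-C. In CMJ, where HMOX1 is named after its values were seen, it rose by 0.85 at 6 h (adjusted p = 0.0462, called in 6 of 13 ways of processing) and differed by 0.76 at 24 h (adjusted p = 0.0708). The other list genes called were ANGPTL4 and PLIN2, lipid-related genes in WI+CS24h-CMJ, also named after their values were seen, which fell (log2 differences -1.29 and -1.49) and were each called in 9 of 13 ways of processing. PLIN2 read 7.14 to 7.62 on replicate 5 of the cold-stored groups and 9.01 to 10.3 on the other cold-stored arrays. Without those replicates the ANGPTL4 fall was still called, and PLIN2 was called in all 4 cold-storage comparisons (-1.09 to -0.82). The calls of CITED2 (AK391669) in WI+CS6h-C, EDN1 in WI+CS24h-CMJ and HMOX1 in WI+CS6h-CMJ were lost (adjusted p = 0.0778, 0.0519 and 0.0666).

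BNIP3L, the paralog of BNIP3 and like it a mitophagy receptor, had 2 identifiers that disagreed. One (AK394038) fell by 0.85 and 0.88 in cold-stored cortex and by 0.53 in WI+CS24h-CMJ (adjusted p = 0.0441, 0.0475 and 0.0394), and the other (ENSSSCT00000010590) differed from Ctl by -0.12 to 0.11. Of the 13 ways of processing, 4 or 5 called the AK394038 falls. With normexp they were -0.13, -0.12 and -0.09, and none was called without replicate 5 of the cold-stored groups.

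**Figure D5:**
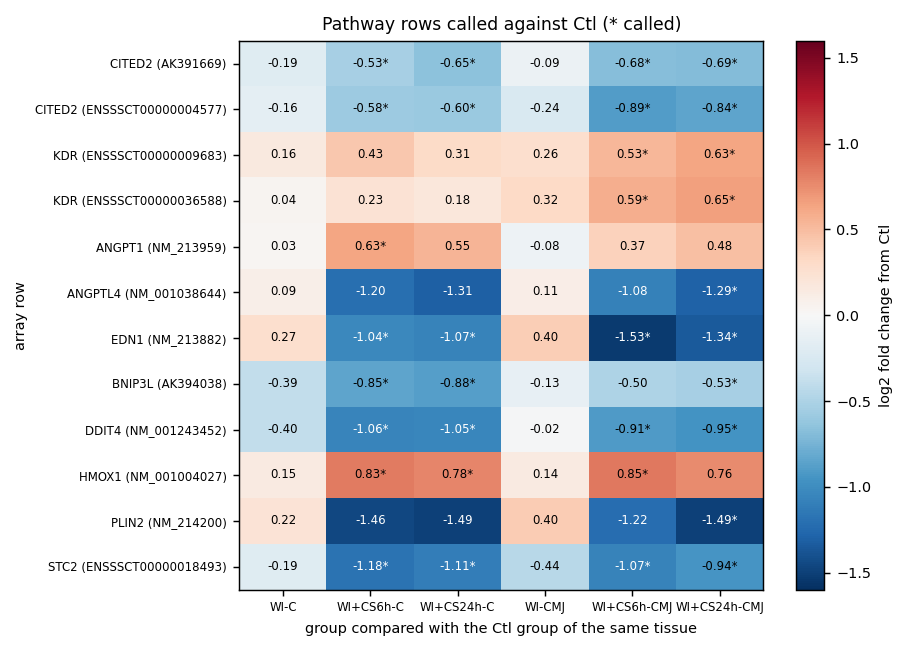
Log2 difference from Ctl of the same tissue (color and printed number) for the list identifiers called in at least 1 comparison (rows). The columns are the WI, WI+CS6h and WI+CS24h groups of each tissue, and an asterisk marks a call. CITED2, DDIT4, EDN1 and the STC2 identifier shown lie below 0 in all 4 cold-storage comparisons, and HMOX1 and KDR lie above 0 there.

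The named identifiers whose pattern over the 40 arrays was most like EPO were C3H2orf40 (Pearson r = 0.81), TNC (r = 0.80) and NDRG2 (r = 0.80). Within cortex the values were 0.66, 0.58 and 0.64, and within CMJ 0.75, 0.79 and 0.74. For EGLN1 they were EGR1 (r = 0.84), PPP1R9B (r = 0.84) and DGAT2 (r = 0.83). The arrays share tissue, treatment and slide, and after the 8 group means were subtracted the r for EPO was 0.54, 0.68 and 0.52 and that for EGLN1 0.43, 0.68 and 0.75, so these are descriptions with no test.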

How the data were processed

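The 40 arrays were scanned and quantified by the authors with Agilent Feature Extraction 11.5.1.1, and the deposited files hold the spot intensity of 1 color. The authors also deposited a matrix of log2 values made in R 2.15.2 with limma. For identifiers with 1 spot it equals the quantile-normalized log2 median signal in 99.98% of values to within 1e-08, and it was used as an alternative. Here log2 was taken of the background-subtracted intensity of each non-control spot, outlier spots (10 to 85 per array) were set missing, the 40 arrays were quantile normalized together, and spots of an identifier were averaged.

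Groups and replicate numbers came from the sample labels, and 0 columns were left unmapped. Linear models with 1 term per group were fitted with limma 3.58.1 in R 4.3.3 (lmFit, eBayes), by tissue for treatments and over both tissues otherwise. The identifiers tested numbered 35939 in cortex, 35938 in CMJ and 35934 over both. Scripts were tested on simulated data. All exact permutation tests were two-sided. The 10 genes, the lists and the rules were chosen with earlier results of these data known. Named list genes were, per list and tissue, the 3 with the smallest adjusted p among those called against Ctl, and up to 3 genes most like EPO and the member with the smallest adjusted p against Ctl.

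Replicate numbers were checked as pairs by correlating deviations from group means. For CMJ at 6 h and 24 h, the same kidneys by the labels, r was 0.33 to 0.61 for the 5 pairs, and every array was closest to its own number. For cortex at 6 h and 24 h it was -0.31 to 0.36, over 0.1 in 3 of 5. Cortex and CMJ gave 0.13 to 0.46 in WI+CS6h and 0.14 to 0.48 in WI+CS24h, with the own number the closest for 3 of 5 and 2 of 5. Pairs that include Ctl or WI groups were not all over 0.1. The array files name no genome build, and no coordinates are given.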

Additional observations from a re-analysis of the deposited data

Results flagged for a closer look

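In 9 of the 88 sets of 5 arrays (11 identifiers in 8 groups), 1 array lay far from the other 4 by Dixon's criterion, which chance alone meets in about 1 set in 20. EPO on WI-CMJ replicate 2 was the lowest of its group at 5.45, with the next at 7.23. For VEGFA (ENSSSCT00000001892), WI-CMJ replicate 1 was lowest at 6.48 (next 7.07) and WI+CS6h-CMJ replicate 5 lowest at 6.83 (next 7.33). HIF1A was highest on WI+CS6h-CMJ replicate 5 at 6.55 (next 6.15), and CA9 on WI+CS6h-C replicate 5 at 7.47 (next 6.63). EPAS1 (AK395711) was highest on WI+CS24h-C replicate 3 at 9.33 (next 8.47), and ARNT lowest on WI+CS24h-CMJ replicate 5 at 5.74 (next 5.96). ADM was lowest on Ctl-CMJ replicate 4 at 10.18 (next 10.47) and highest on WI+CS6h-CMJ replicate 3 at 10.72 (next 10.37). No comparison of effects between the tissues passed the test.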

How the results depend on the processing

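No called value changed direction. Between cold-stored CMJ and WI-CMJ, the 3 calls (EPO at both times, VEGFA at 6 h) became 1 when only the groups compared were fitted, 0 with slide as a block and 0 without WI-CMJ replicates 1, 3 and 5, and leaving out single arrays gave 0 to 4 calls (0 without WI-CMJ replicate 1, 4 or 5, and 1 without WI+CS6h-CMJ replicate 3). Each EPO call was lost in 6 of 20 such fits: both without WI-CMJ replicate 1, 3, 4 or 5 (adjusted p = 0.0520 to 0.0790), that at 6 h without WI+CS6h-CMJ replicate 1 or 3 (0.0560 and 0.0701), and that at 24 h without WI+CS24h-CMJ replicate 3 or 4 (0.0575 and 0.0731). With slide as a block the EPO differences had adjusted p = 0.196 and 0.0680, and with normexp background correction they were -0.73 and -0.71. The VEGFA rise at 6 h dropped below 0.5 with 75th percentile scaling (0.498), the deposited matrix (0.417), normexp (0.283), quantile normalization within a tissue (0.495), scan day (0.487) and slide (0.495, adjusted p = 0.0981). Between CMJ and cortex, 0 calls became 1 with the deposited matrix and normexp (EPO in WI), only the groups compared and quantile normalization within a group (CA9), the replicate block (1, CA9 in Ctl, adjusted p = 0.0167) and without WI+CS6h-C replicates 3 and 5, 1 without the 4 cold-stored replicate 5 arrays (CA9 in Ctl), and 0 to 1 without single arrays. Against Ctl-CMJ, 0 calls became 1 with slide as a block (VEGFA ENSSSCT00000001892 at 6 h, 0.52, adjusted p = 0.0460), and 0 to 1 without single arrays (EPO at 6 h, adjusted p = 0.0489 without WI-CMJ replicate 2). That WI array is not in the comparison with Ctl-CMJ, so the EPO difference stayed at -1.21. The 33 calls of list identifiers against Ctl became 21 with the deposited matrix, 14 with normexp and 11 with slide as a block, and 25 to 40 without single arrays. The replicate block left the 3 calls against WI-CMJ at 3 and gave 32 list calls. In the groups fitted as pairs alone, 0 members were called in each of 3 comparisons, an alternative chosen after seeing the data, as were leaving out sets of arrays, and the mean over conditions with its alternatives. Quantile normalization within a group put the median of all identifiers as high as 0.17 in treatment comparisons and 0.24 in interactions. Comparisons in cortex, of 24 h with 6 h and of effects between tissues called 0 members under each alternative run. EPO rests on 1 probe, and at signals near background a fold change has a floor. The cause of these changes was not tested.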
